A study of Mus musculus with 26 samples.

Results

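Notch signaling was followed through CD8 T cell positive selection with 7 genes: the receptors Notch1 and Notch3, the DNA-binding factor Rbpj, and the target genes Hes1, Heyl, Dtx1 and Nrarp. They were found by gene symbol, as 7 of the 46517 symbols measured, and each of the 7 passed the filter on low values. The data are bulk RNA-seq of sorted mouse thymocytes, in 26 libraries from 3 T cell receptor (TCR) transgenic lines whose MHC class I-restricted TCRs span low (TG6), intermediate (F5) and high (OT-1) self-reactivity. TG6 thymocytes came from TG6tg H2b/d mice on the cross C57/BL6 x B6.C-H2d/bByJ, which keep both Rag genes. F5 thymocytes came from F5tg Rag1KO mice and OT-1 thymocytes from OT-1tg Rag2KO mice, both on C57/BL6, so that a line and its Rag genotype cannot be told apart. From each line 3 mice were sorted into 3 stages. CD4+CD8+ cells with the phenotype CXCR4+CCR7- are called early, CD4+CD8+ cells that were CXCR4-CCR7+ are called late, and CD4-CD8+ cells that were CXCR4-CCR7+ are called mature. Every group holds 3 libraries except TG6 late, which holds 2. All mice carry a rearranged TCR from a transgene.

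Notch receptors are surface proteins that are cut after they meet a Delta or Jagged ligand on a neighbouring cell. The freed intracellular part moves to the nucleus, binds Rbpj and a Mastermind-like protein on DNA, and switches on genes such as Hes1, Heyl, Dtx1 and Nrarp. In the thymus, Notch1 drives T lineage commitment and is used up to the β-selection checkpoint, after which the pathway is largely turned down in CD4+CD8+ double-positive cells. Nrarp and Dtx1 encode proteins known to limit Notch signals, and Notch3 is itself a target of the pathway in immature thymocytes.

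Values below are the authors' normalized counts, which correct for library depth but not for gene length. In the GENCODE annotation of GRCm38 (mm10), Notch1 lies on chromosome 2 from 26457903 to 26516663 on the minus strand and Nrarp on the same chromosome from 25180758 to 25183339 on the plus strand. Rbpj lies on chromosome 5 from 53466152 to 53657362 on the plus strand, and Dtx1 on that chromosome from 120680202 to 120711927 on the minus strand. Hes1 is on chromosome 16 from 30064384 to 30067796 and Heyl on chromosome 4 from 123233556 to 123249875, both on the plus strand, and Notch3 is on chromosome 17 from 32120820 to 32166852 on the minus strand. An antisense gene that the table also counts overlaps exons of Notch3 (Gm17276, at most 5.96 in any library) and of Nrarp (Gm38287, at most 18.4), and 0610009E02Rik (at most 296) and Gm13568 (at most 106) overlap exons of Notch1 from the opposite strand. Whether the counting used strand is not given in the sources used here, so reads of such pairs cannot be told apart, and for Nrarp the antisense level is as high as some of its own values. Per kilobase of exon, the median of the 9 group means was 611 for Dtx1, 424 for Notch1, 156 for Hes1, 132 for Notch3 and 132 for Rbpj, and only 17.7 for Nrarp and 5.51 for Heyl, whose values rest on few reads.

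Promoter windows of 250 bases before the start site were taken from RefSeq (GRCm38.p6) for 5 of the 7 members, Notch1, Notch3, Dtx1, Nrarp and Rbpj, and not for Hes1 and Heyl. They were searched on both strands for TGGGAA, the core that Rbpj binds, which 21.6% of all 32851 such windows hold. Of these 5 members Rbpj held it, in both of its overlapping windows. The first window holds it once on each strand, and the minus-strand copy lies in an annotated exon and is not shown. The windows of the other 4 held no copy within these bases. Those of Dtx1, Notch1 and Rbpj lie inside the GENCODE bounds of their genes, and that of Dtx1 begins in an annotated exon. A match or its absence therefore holds for these windows only, not for other start sites of the genes. Shown here are the bases outside annotated exons for Rbpj, which holds the match, and for Notch3 and Nrarp, which both fell from early to late selection in TG6 and F5. The sequences run 5′ to 3′ on each gene's strand, and capitals mark TGGGAA.
Rbpj, chr5:53590096-53590213, plus strand: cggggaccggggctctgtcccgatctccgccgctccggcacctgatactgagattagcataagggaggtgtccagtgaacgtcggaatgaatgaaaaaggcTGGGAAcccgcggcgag
Notch3, chr17:32166891-32167140, minus strand: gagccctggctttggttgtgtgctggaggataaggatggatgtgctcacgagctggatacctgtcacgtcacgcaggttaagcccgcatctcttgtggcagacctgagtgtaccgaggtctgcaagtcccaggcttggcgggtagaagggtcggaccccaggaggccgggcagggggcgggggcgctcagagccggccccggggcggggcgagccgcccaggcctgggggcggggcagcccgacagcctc
Nrarp, chr2:25180508-25180757, plus strand: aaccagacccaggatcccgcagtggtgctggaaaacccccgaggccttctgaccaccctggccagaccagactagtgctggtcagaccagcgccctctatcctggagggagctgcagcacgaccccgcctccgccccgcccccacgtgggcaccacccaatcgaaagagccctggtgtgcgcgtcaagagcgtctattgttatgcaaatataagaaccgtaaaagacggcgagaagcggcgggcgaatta

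The libraries sum to 16134786 to 18944173 normalized counts and all express the T cell genes Cd3e, Cd3g, Cd8a, Cd8b1 and Lck. Of the sort markers, Cd4 was at least 1455 in early and late and at most 461 in mature libraries, and Ccr7 at most 863 in early and at least 2698 in late and mature ones, while Cxcr4 mRNA in mature libraries (1219 to 4031) overlapped with the early ones (1425 to 5527) although these cells were sorted as CXCR4-. In bulk samples, fewer cells of a type and less RNA per cell cannot be told apart. One library stood apart: TG6 mature replicate 3 had 5265 normalized counts of Rag1 and 7845 of Dntt, genes of preselection double-positive cells, against at most 696 and 1596 in the other TG6 mature libraries. Rag1 was also uneven in F5 late, at 62.3, 1658 and 109. Reads were counted for Rag1 in every library of F5, the Rag1KO line (62.3 to 16266), and for Rag2 in every library of OT-1, the Rag2KO line (5.37 to 291). Which exons the knockouts remove is not given in the sources used here, so these values do not check the labels. Of 6 thymic epithelial genes, Ccl25 (41.1 to 137), Epcam (10.2 to 47.7) and Psmb11 (8.88 to 42.3) were detected in every library, Krt5, Krt8 and Foxn1 reached at most 2.90, and the 6 summed to 81.8 to 179. The Notch ligand gene Dll4 reached at most 14.4 in any library.

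The 7 members did not move as a block. OT-1 thymocytes carried less Rbpj than TG6 thymocytes at all 3 stages, less Notch3 at the late and mature stages and more Hes1 at the late stage, while Dtx1 was lower in F5 than in both other lines at every stage. Between stages, Notch3 fell from early to late selection in all lines, Hes1 and Nrarp fell in TG6 and F5, and Rbpj fell from the late to the mature stage in all lines. Differences were tested with limma on log2(normalized count + 1) over 16372 genes, and a gene was called where its adjusted p (Benjamini-Hochberg) was under 0.05.

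**Figure D1:**
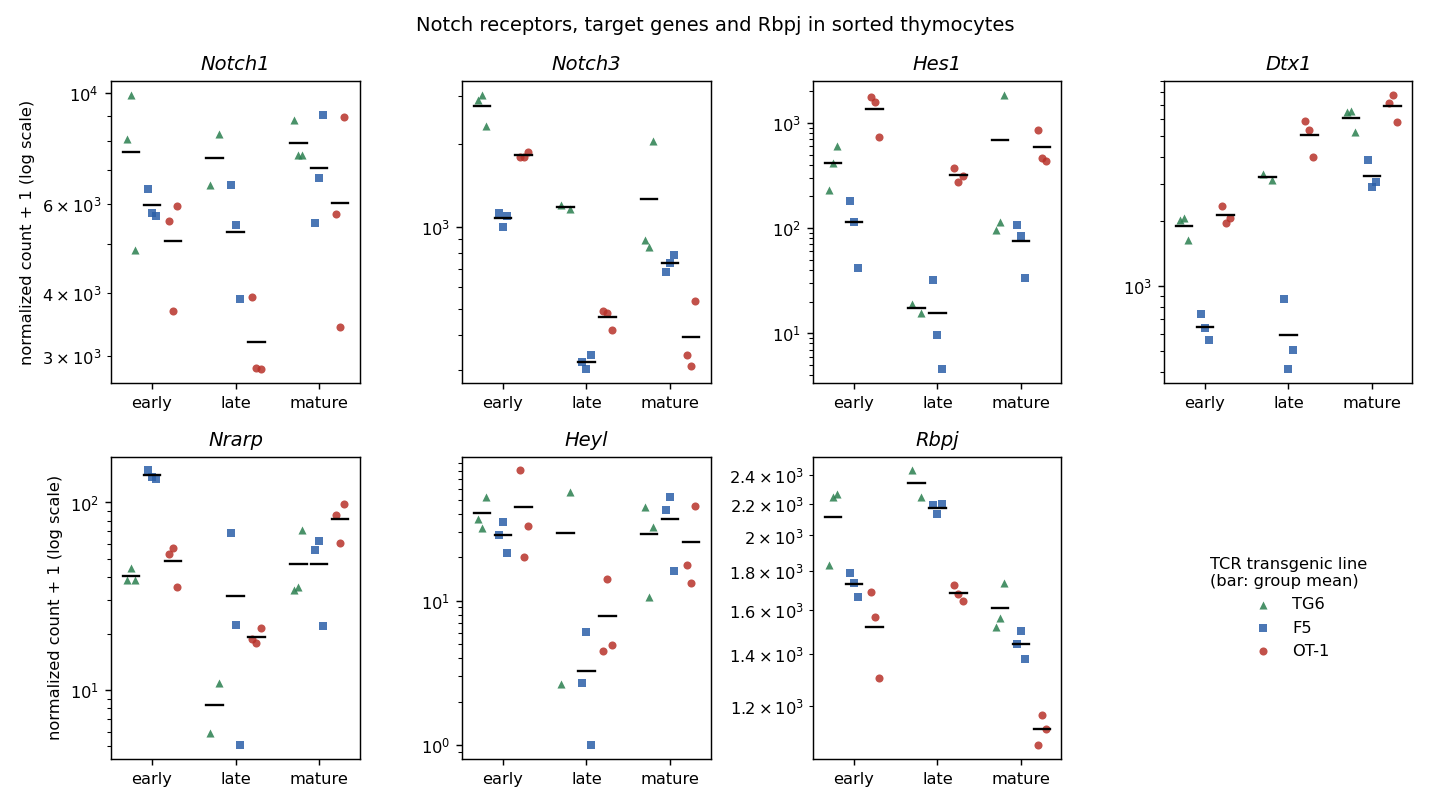
Normalized count + 1 on a log axis (1 point per library, bars for group means) by stage for each gene, with TG6 as triangles, F5 as squares and OT-1 as circles. Hes1 shows the OT-1 libraries above both other lines at the late stage, and 1 TG6 mature library, at 1848 before the 1 is added, above all others of its stage.

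Called members are counted here beside the share of all genes tested that were called. For OT-1 against TG6, 1 of 7 members was called at the early stage (27.8% of all genes), 4 at the late stage (15.5%) and 2 at the mature stage (9.74%). Against F5, 3 members were called in OT-1 at the early stage (12.7%), 3 at the late stage (24.0%) and 4 at the mature stage (23.3%). Between F5 and TG6, the counts were 2 early (6.46%), 2 late (4.97%) and 1 mature (6.64%). From early to late selection, 4 members were called in TG6 (25.4%), 5 in F5 (26.7%) and 3 in OT-1 (26.7%). From late selection to the mature stage, the counts were 4 in TG6 (22.3%), 5 in F5 (20.5%) and 3 in OT-1 (24.4%). The median log2 difference of the 7 members from early to late was -1.22 in TG6, -1.74 in F5 and -1.31 in OT-1, where that of all genes was 0.00, 0.04 and 0.02. From late to mature that median was 0.90 in TG6, 1.19 in F5 and 0.81 in OT-1, where that of all genes was 0.00, -0.01 and -0.02. Comparisons that share a group (TG6 in both OT-1 and F5 contrasts, late cells in both stage steps) are not independent of each other.

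Notch1, the main Notch receptor of developing T cells, was highly expressed in all groups and varied widely among mice. In TG6 it measured 8069, 9898 and 4862 at the early stage, 6536 and 8270.2 at the late stage and 8813, 7510.4 and 7504 at the mature stage. In F5 the values were 6429.7, 5769.7 and 5693 early, 6536, 5440.1 and 3877 late and 5498, 6759 and 9009 mature. In OT-1 they were 5564, 3674 and 5959 early, 3923, 2830.3 and 2813 late and 5743, 3412 and 8949 mature. The late groups of OT-1 and TG6 did not overlap, and at the other stages these lines did. Late OT-1 cells had 2.33-fold less Notch1 than late TG6 cells (log2 difference -1.22 ± 0.33 (SE), adjusted p = 0.0129). That call was lost without TG6 late replicate 2 (adjusted p = 0.148). OT-1 and TG6 differed by -0.56 on the log2 scale at the early stage (95% interval -1.16 to 0.05) and by -0.50 at the mature stage (-1.10 to 0.10), neither of them called, and without TG6 early replicate 3 the early difference was called (log2 difference -0.85, adjusted p = 0.0442). F5 fell between the other lines in mean level at all 3 stages, and no Notch1 difference of F5 to either line was called. Within OT-1, Notch1 rose from the late to the mature stage (log2 difference 0.83, adjusted p = 0.0418), though the groups overlapped. The call was lost without OT-1 late replicate 2 (adjusted p = 0.127) or 3 (0.113) or OT-1 mature replicate 1 (0.0949), and with no filter (0.0692), scaling by total (0.0639), quantile normalization (0.058), the groups fitted alone (0.138) or no variance trend (0.062). Without OT-1 mature replicate 3 the difference was 0.49 (adjusted p = 0.258). The preceding step in OT-1 was not called (log2 difference -0.65, adjusted p = 0.104), but was with the mouse as a random block (adjusted p = 0.0485) and not as a fixed one (0.0523).

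Notch3, a second receptor that is abundant before β-selection, was highest in TG6 at every stage and fell in all lines from early to late selection. In TG6 it measured 2911, 3033 and 2338 at the early stage, 1199 and 1161 at the late stage and 894, 842 and 2054 at the mature stage. In F5 it measured 1120.4, 999 and 1094 early, 319.6, 299 and 339 late and 679, 733 and 784 mature. OT-1 held 1797, 1789 and 1877 early, 492, 484 and 418 late and 339, 307 and 534 mature. The lines did not overlap with each other at any stage. From early to late selection Notch3 fell 2.32-fold in TG6 (log2 difference -1.22 ± 0.26 (SE), adjusted p = 0.00104), 3.35-fold in F5 (log2 difference -1.74 ± 0.23 (SE), adjusted p = 6.77e-06) and 3.93-fold in OT-1 (log2 difference -1.97 ± 0.23 (SE), adjusted p = 2.83e-06). From late to mature, Notch3 rose 2.29-fold in F5 (log2 difference 1.19 ± 0.23 (SE), adjusted p = 0.000629), and the step was -0.28 in OT-1 (95% interval -0.76 to 0.20) and -0.03 in TG6 (-0.56 to 0.50), neither called. The difference of this step between lines was not tested. In TG6 mature, replicate 3 was far above replicates 1 and 2, and this is the library with raised Rag1 and Dntt; the part of those cells in the value was not tested.

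Between lines, Notch3 was lower in OT-1 than in TG6 at the late stage, by 2.54-fold (log2 difference -1.35 ± 0.26 (SE), adjusted p = 0.000859), and at the mature stage, by 3.02-fold (log2 difference -1.60 ± 0.23 (SE), adjusted p = 7.01e-05). Without TG6 mature replicate 3 the mature difference was -1.18 (adjusted p = 2.37e-05), and fitted on the 2 groups alone it was not called (adjusted p = 0.124). At the early stage the difference, -0.59, missed the threshold (adjusted p = 0.0597), and it passed with scaling by total (adjusted p = 0.0244), with quantile normalization (0.0395) and with the 2 groups alone (0.00601). F5 was below TG6 by 2.56-fold early (log2 difference -1.36, adjusted p = 0.000545) and 3.69-fold late (log2 difference -1.88, adjusted p = 3.41e-05), and by 1.58-fold at the mature stage without a call (adjusted p = 0.0969), which it gained without TG6 mature replicate 1 (0.0478) or 2 (0.0275). Without TG6 mature replicate 3 that difference was -0.25 (adjusted p = 0.427). The order of OT-1 and F5 turned over between stages. OT-1 was 1.70-fold above F5 at the early stage (log2 difference 0.77, adjusted p = 0.0303) and 1.91-fold below it at the mature stage (log2 difference -0.93, adjusted p = 0.00571). The preselection genes Rag1 and Dntt moved with several of these differences, but against the early one between OT-1 and F5. In late cells both were lower in OT-1 than in TG6 without overlap (Rag1 24.1 to 82.1 against 124 to 249, Dntt 622 to 1037 against 2213 to 2493). In mature cells Rag1 was lower in OT-1 than in TG6 (619.9 to 5265) and Dntt overlapped (1267 to 7845 in TG6). F5 was below TG6 in Rag1 at the early stage (10835 to 16266 against 51114 to 58364), and overlapped with it in early Dntt and late Rag1. In late Dntt F5 was above TG6. At the early stage both genes were lower in OT-1 than in F5 without overlap, while Notch3 was higher in OT-1. In mature cells Rag1 (704 to 2698 in F5, 203 to 545 in OT-1) and Dntt (3493 to 8516 in F5, 1104 to 2545 in OT-1) were higher in F5 than in OT-1 without overlap, with F5 being the Rag1KO line. In late F5 cells Rag1 was 62.3 to 1658 and Dntt 3038 to 5122, both overlapping the mature F5 values. Their part in the Notch3 differences between lines and in its F5 rise was not tested. The early call was lost without any 1 of the 6 libraries compared, with adjusted p from 0.0535 to 0.106, and with scaling by total (0.0529). The change of the OT-1 minus F5 difference from early to mature was itself tested, after the values had been seen, and was called (1.70 ± 0.32 (SE), adjusted p = 0.00601, where 1.64% of all genes were called). For F5 minus TG6 the same change was -0.70 ± 0.32 (SE), adjusted p = 0.282, beside 4.4% of all genes, and it was called without TG6 mature replicate 3 (-1.11, adjusted p = 0.00278).

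Rbpj, the factor through which all Notch receptors reach DNA, changed by small amounts with little spread among mice. TG6 held 1830.1, 2247 and 2265 at the early stage, 2429 and 2245 at the late stage and 1521, 1561 and 1735 at the mature stage. F5 held 1784, 1735 and 1663 early, 2193, 2131 and 2197 late and 1445, 1502 and 1379 mature, and OT-1 held 1685, 1566 and 1303 early, 1725, 1676 and 1642 late and 1065, 1166 and 1119.9 mature. Every OT-1 library was below every TG6 library of its stage. The deficit in OT-1 was 1.39-fold early (log2 difference -0.48 ± 0.09 (SE), adjusted p = 0.000606), 1.39-fold late (log2 difference -0.47 ± 0.10 (SE), adjusted p = 0.00308) and 1.44-fold at the mature stage (log2 difference -0.52 ± 0.09 (SE), adjusted p = 0.000801), which made Rbpj the single member called between OT-1 and TG6 at all 3 stages. The late call was lost without TG6 late replicate 1 (adjusted p = 0.0646) and the mature call with the 2 groups fitted alone (adjusted p = 0.0661). OT-1 was also below F5 by 1.29-fold late (log2 difference -0.37, adjusted p = 0.00572) and by 1.29-fold at the mature stage (log2 difference -0.37, adjusted p = 0.00711). F5 and TG6 did not differ past the threshold, with log2 differences of -0.28, -0.10 and -0.15 from the early to the mature stage. The early one was called without TG6 early replicate 1 (adjusted p = 0.02) or TG6 mature replicate 3 (0.0438). It was also called with scaling by total (0.0445) or quantile normalization (0.0465). The early difference of OT-1 from F5, -0.19, was not called (adjusted p = 0.19), but was with scaling by total (0.0272). Rbpj fell from late to mature cells in all lines: -0.54 ± 0.10 (SE) in TG6 (adjusted p = 0.000659, and 0.0653 with the groups fitted alone), -0.59 ± 0.09 in F5 (8.62e-05) and -0.59 ± 0.09 in OT-1 (0.000109). The rise before it, from early to late, was called in F5 (log2 difference 0.33, adjusted p = 0.0105), and the values in TG6 (0.15) and OT-1 (0.16) were not.

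**Figure D2:**
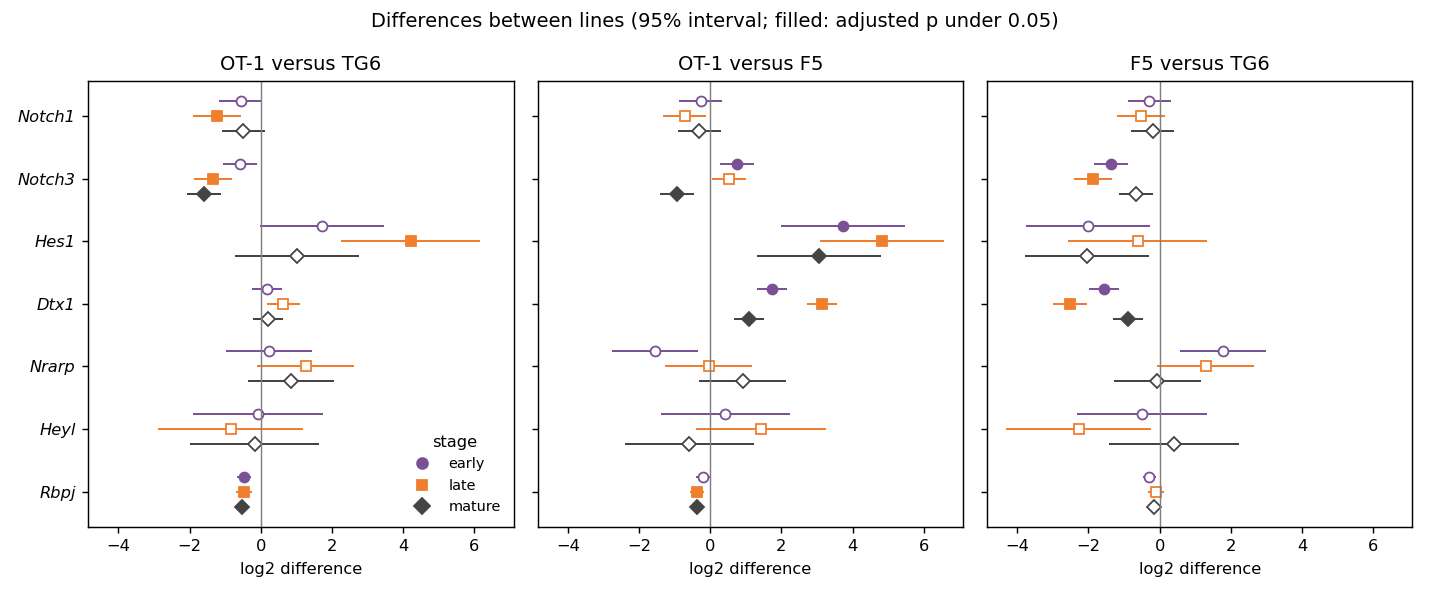
Log2 differences between lines for each gene, with 95% intervals from limma, at the early (circles), late (squares) and mature (diamonds) stage; filled symbols passed an adjusted p of 0.05. Hes1 lies to the right in both OT-1 panels, Rbpj lies just left of 0 in OT-1 versus TG6 at all stages, and Dtx1 separates F5 from both other lines.

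Hes1, a transcriptional repressor and the best known Notch target, had its highest mean within the early stage and within the late stage in OT-1, and ran from 3.52 to 1848 over the 26 libraries. OT-1 libraries held 1762, 1574 and 739.7 at the early stage, 370.1, 272 and 314 at the late stage and 860.3, 466 and 430.4 at the mature stage. F5 libraries held 181, 114 and 40.7 early, 31.3, 8.68 and 3.52 late and 106, 82.3 and 32.9 mature. In TG6 the values were 228, 413 and 598 early, 18.1 and 14.4 late and 95.7, 113 and 1848 mature. OT-1 was above F5 at every stage without overlap, and above TG6 at the early and late stages. Its excess over F5 was 13.3-fold early (log2 difference 3.73 ± 0.84 (SE), adjusted p = 0.00422), 28.2-fold late (log2 difference 4.82 ± 0.84 (SE), adjusted p = 0.000195) and 8.32-fold at the mature stage (log2 difference 3.06 ± 0.84 (SE), adjusted p = 0.0118). Single libraries moved these sizes: the late excess was 47.9-fold without F5 late replicate 1 and 17.9-fold without replicate 3, and the early one 8.78-fold without F5 early replicate 3. Late OT-1 cells exceeded late TG6 cells by 18.5-fold (log2 difference 4.21 ± 0.94 (SE), adjusted p = 0.00341). The early difference from TG6, 1.73 with a 95% interval of -0.01 to 3.47, was not called (adjusted p = 0.131), but was with the 2 groups fitted alone (adjusted p = 0.0233).

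The mature comparison of Hes1 with TG6 turned on 1 library. With all libraries the log2 difference was 1.03 (adjusted p = 0.465), and TG6 mature replicate 3 was above every OT-1 mature library. Without that library it was 2.41 (adjusted p = 0.0111), a 5.31-fold excess in OT-1, in a fit that called 27.2% of all genes rather than 9.74%. That fit also called the early difference between OT-1 and TG6 (adjusted p = 0.0319), the same early difference of Notch3 (0.00341), and a lower early level of Hes1 in F5 than in TG6 (0.0365). Sums of other cells' markers moved with some of these groups. The 6 dendritic and myeloid markers summed to 235 to 790.1 in OT-1 early against 26.8 to 395 in F5 early and 86.5 to 158 in TG6 early. At the late stage these sums were 343 to 389 in OT-1, 45.5 to 94.5 in F5 and 472 to 812 in TG6, and of the 6 markers Csf1r alone was at 0 in all libraries of a group, F5 late. The 3 erythroid markers reached 699.7 in OT-1 early against 309 in F5 early and 195 in TG6 early. The γδ T cell markers Sox13, Trdc and Blk summed to 9315 to 10215 in OT-1 early, 8832 to 10043 in F5 early and 1882 to 2227 in TG6 early. At the late stage the γδ sums were 10823 to 12550 in OT-1, 6537 to 8292 in F5 and 2029 to 3407 in TG6, with no overlap between lines, and the erythroid sums reached 604 in OT-1, 69.0 in F5 and 137 in TG6. The cells were sorted as CD4+CD8+ or CD4-CD8+. F5 and OT-1, the lines with the higher γδ marker sums, each carry a Rag knockout, and the label of TG6 gives none. Whether these transcripts came from γδ, myeloid or erythroid cells was not tested, nor was the part of such cells in the Hes1 differences.

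From early to late selection Hes1 fell 22.4-fold in TG6 (log2 difference -4.48 ± 0.94 (SE), adjusted p = 0.000943), or 12.4-fold with the mouse as a fixed block, which rests on reading shared numbers as shared mice, and 8.52-fold in F5 (log2 difference -3.09 ± 0.84 (SE), adjusted p = 0.00814). In F5 the call was lost without F5 late replicate 3 (adjusted p = 0.0605) or with the groups fitted alone (0.0523), and the log2 difference ranged from -3.85 to -2.44 as single libraries were left out. In OT-1 every late library was below every early one, and the difference of -2.004 was not called (adjusted p = 0.0832) but was called with the mouse as a block (adjusted p = 0.0216 as a random and 0.00344 as a fixed term). Hes1 rose again in mature cells in TG6 (log2 difference 3.99 ± 0.94 (SE), adjusted p = 0.00368) and in F5 (log2 difference 2.58 ± 0.84 (SE), adjusted p = 0.0324). Without TG6 mature replicate 3 the TG6 rise was 2.61 (adjusted p = 0.0167), or 6.12-fold in place of 15.9-fold. It was 8.83-fold with the mouse as a fixed block and 26.7-fold or 24.6-fold without TG6 mature replicate 1 or 2, and with the groups fitted alone the rise was not called (adjusted p = 0.165). In F5 the rise lost its call without any 1 of F5 late replicates 2 and 3 and F5 mature replicates 1 and 2 (adjusted p from 0.084 to 0.177), and with 5 added to each count (0.058), no filter (0.0542), quantile normalization (0.0523) or the groups fitted alone (0.115). Its size was 5.97-fold, or 3.79-fold without F5 late replicate 3 and 10.1-fold without F5 late replicate 1. The dendritic and myeloid markers summed to 205 to 665 in mature F5 libraries and 886 to 1858 in mature TG6 libraries, each above the late sums of its own line, and their part in the rise was not tested. In OT-1 the step was 0.81, with a 95% interval of -0.93 to 2.56. The mature excess of OT-1 over F5 was lost without F5 mature replicate 3 (adjusted p = 0.0706) or OT-1 mature replicate 1 (0.0515).

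Dtx1, an E3 ubiquitin ligase that binds Notch, was lower in F5 than in both other lines at every stage. F5 libraries held 739, 635 and 561 at the early stage, 865, 408 and 503 at the late stage and 3848, 2883 and 3049 at the mature stage. TG6 libraries held 2030.0, 2062 and 1639 early, 3335 and 3105 late and 6435, 6502 and 5205 mature. OT-1 libraries held 2347, 1973 and 2084 early, 5851, 5308 and 4004 late and 7118, 7769 and 5818 mature. At no stage did F5 overlap with either line. F5 was below TG6 by 2.96-fold early (log2 difference -1.57 ± 0.20 (SE), adjusted p = 2.05e-05), 5.72-fold late (log2 difference -2.51 ± 0.23 (SE), adjusted p = 8.18e-08) and 1.86-fold at the mature stage (log2 difference -0.90 ± 0.20 (SE), adjusted p = 0.00654). It was below OT-1 by 3.32-fold early (adjusted p = 3.61e-06), 8.87-fold late (2.81e-10) and 2.12-fold at the mature stage (0.00064). The 6 dendritic and myeloid markers were also lowest in F5 late without overlap (45.5 to 94.5, against 343 to 389 in OT-1 and 472 to 812 in TG6). They overlapped between F5 and both other lines at the early stage. In F5 mature (205 to 665) they were below TG6 (886 to 1858), overlapped with OT-1 (646 to 910) and were above F5 late. Their part in the F5 deficit of Dtx1 and in its rise from late to mature was not tested. The 6 calls of a lower Dtx1 in F5 held in every alternative fit and without any single library. OT-1 and TG6 overlapped at the early and mature stages, with log2 differences of 0.16 (95% interval -0.26 to 0.59) and 0.19 (-0.23 to 0.61). At the late stage OT-1 was higher without overlap (log2 difference 0.63, adjusted p = 0.0632), a difference called with the mouse as a random block (adjusted p = 0.0293) or without OT-1 late replicate 3 (0.0325).

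Calls of a rise of Dtx1 fell at different steps in the lines, and its late to mature step was not compared between lines. It rose from early to late in OT-1 (log2 difference 1.23 ± 0.20 (SE), adjusted p = 0.000119) and TG6 (log2 difference 0.76 ± 0.23 (SE), adjusted p = 0.016), whereas F5 showed -0.19 (95% interval -0.61 to 0.23) there and rose 5.74-fold from late to mature (log2 difference 2.52 ± 0.20 (SE), adjusted p = 3.46e-08). TG6 rose at the second step too (log2 difference 0.90, adjusted p = 0.00607). The TG6 call of the first step was lost without TG6 early replicate 3 (adjusted p = 0.0685) or either TG6 late library (0.113 and 0.067), and that of the second step without TG6 late replicate 2 (0.0668). Without F5 late replicate 1, the highest of its group, the early to late difference in F5 was a called fall (-0.50, adjusted p = 0.0392). In OT-1 the second step was 0.46 (adjusted p = 0.107) and was called with the mouse as a block (0.031 random, 0.011 fixed). The change of the OT-1 minus F5 difference between early and late, tested after the values had been seen, was called (-1.42 ± 0.29 (SE), adjusted p = 0.0109, beside 1.68% of all genes), though not with the 4 groups fitted alone (adjusted p = 0.0702). The same change of F5 minus TG6 was not called (0.95 ± 0.30 (SE), adjusted p = 0.129, beside 2.08% of all genes), but was with the mouse as a block (0.0329 random, 0.0211 fixed) or without F5 late replicate 1 (0.00586). From early to mature, the changes of OT-1 minus F5 (0.65, adjusted p = 0.345) and of F5 minus TG6 (-0.67, adjusted p = 0.231) were called only with the mouse as a fixed block (0.0473 and 0.0273).

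**Figure D3:**
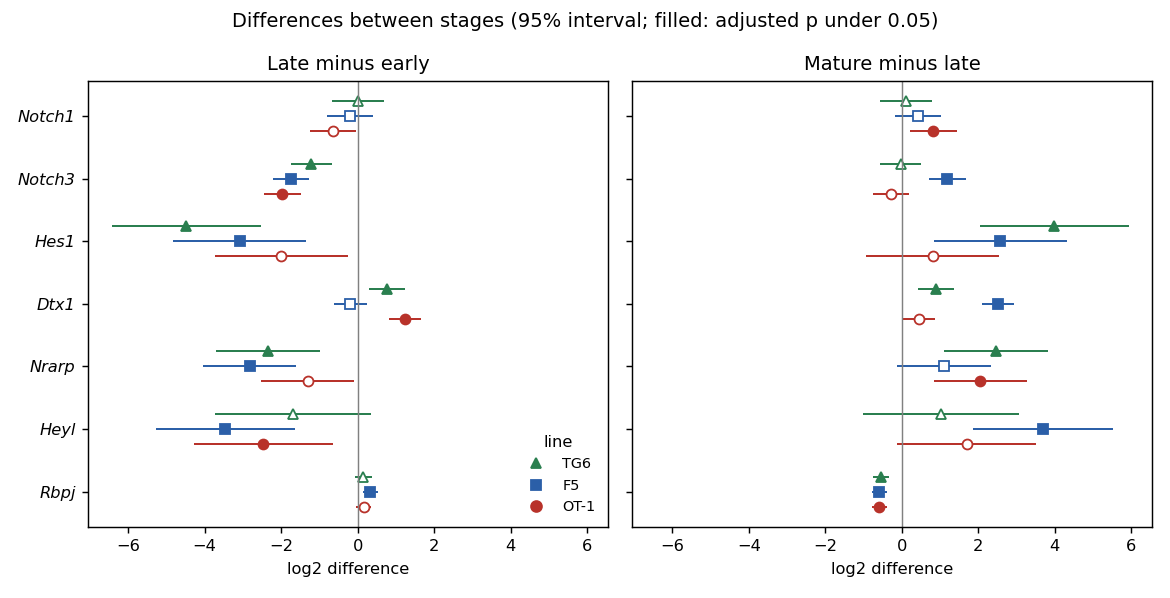
Log2 differences between successive stages for each gene in TG6 (triangles), F5 (squares) and OT-1 (circles), with 95% intervals; filled symbols passed an adjusted p of 0.05. Notch3 falls in all lines in the left panel, Rbpj falls in all lines in the right panel, and the Dtx1 step of F5 lies in the right panel only.

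Nrarp, which encodes a small inhibitor of the Notch complex, was low in all groups. Its values were 37.6, 43.7 and 37.7 in TG6 early, 4.89 and 9.83 in TG6 late and 33.3, 34.6 and 70.0 in TG6 mature. In F5 they were 147, 135 and 133 early, 67.4, 21.1 and 4.08 late and 54.6, 61.4 and 21.1 mature, and in OT-1 52.0, 56.2 and 34.5 early, 17.6, 16.7 and 20.3 late and 84.3, 59.5 and 97.0 mature. The 3 early F5 libraries stood above all other libraries of the series. Yet the early excess of F5 over TG6 (log2 difference 1.78, adjusted p = 0.0775) and over OT-1 (log2 difference -1.55 as OT-1 minus F5, adjusted p = 0.0895) was not called, and with the 2 groups fitted alone both were (adjusted p = 0.0035 and 0.00964). Nrarp fell from early to late in F5 (log2 difference -2.82 ± 0.59 (SE), adjusted p = 0.000941) and TG6 (log2 difference -2.35 ± 0.66 (SE), adjusted p = 0.0104). In OT-1 all late libraries were below the early ones (log2 difference -1.31, adjusted p = 0.106), and the mouse block gave adjusted p = 0.0445 (random) and 0.0458 (fixed). It rose again in mature TG6 (log2 difference 2.47 ± 0.66 (SE), adjusted p = 0.00896) and OT-1 cells (log2 difference 2.06 ± 0.59 (SE), adjusted p = 0.0137). The TG6 calls were lost without TG6 late replicate 1 (adjusted p = 0.137 and 0.122) and the OT-1 rise without OT-1 mature replicate 3 (0.0518). With the groups fitted alone, the fall in F5 (adjusted p = 0.0759) and the rise in TG6 (0.0707) were not called. F5 late spread from 4.08 to 67.4, and without replicate 1 or 3 of that group the fall in F5 was -3.72 or -1.84, called in both fits. Without replicate 1 the F5 late to mature difference was called (2.00, adjusted p = 0.00678; with all libraries 1.11, 0.205), and without replicate 3 late F5 was called above late TG6 (2.28, 0.00867). The change of the OT-1 minus F5 difference from early to mature (-2.46 ± 0.83 (SE), adjusted p = 0.161) was called with the mouse as a block (0.0477 random, 0.0484 fixed).

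Heyl, a repressor of the Hey family, was the lowest member. Its values were 35.7, 31.1 and 51.7 in TG6 early, 1.64 and 55.7 in TG6 late and 43.4, 9.63 and 31.5 in TG6 mature. F5 held 27.8, 34.4 and 20.5 early, 1.71, 5.04 and 0 late and 41.5, 51.1 and 15.2 mature, and OT-1 held 79.1, 19.05 and 32.3 early, 3.47, 13.2 and 3.96 late and 16.6, 12.2 and 44.7 mature. The lines overlapped at every stage and no line difference of Heyl was called. It fell from early to late in F5 (log2 difference -3.46 ± 0.88 (SE), adjusted p = 0.00497) and OT-1 (log2 difference -2.47 ± 0.88 (SE), adjusted p = 0.0409), and rose from late to mature in F5 (log2 difference 3.70 ± 0.88 (SE), adjusted p = 0.00401). In F5 both log2 differences depend on the 1 added to each count, since F5 late ran from 0 to 5.04: with 0.1 added they were -4.80 and 5.03, and with 5 added -2.21 and 2.43, called each time. Without F5 late replicate 2 they were -4.09 and 4.32, and without replicate 3 -2.79 and 3.03. The OT-1 call was lost without OT-1 early replicate 1 or 3 or OT-1 late replicate 1 or 3 (adjusted p from 0.0795 to 0.168), with 0.1 added (0.101), with no filter (0.0708) and with no variance trend (0.0538). The pair of TG6 late libraries stood far apart, and without replicate 2 of that group the early to late difference of TG6 was -3.91 (adjusted p = 0.00816) and the late to mature difference 3.24 (0.0381), where with both libraries they were -1.69 (0.236) and 1.02 (0.498). Without replicate 1 of TG6 late, Heyl was called lower in late F5 than in late TG6 (-4.48, adjusted p = 0.0113).

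Markers of earlier thymocytes moved with the early to late falls of Notch3, Hes1, Nrarp and Heyl. Rag1, a recombinase gene of preselection cells, ran from 51114 to 58364 in TG6 early and 124 to 249 in TG6 late, from 10835 to 16266 and 62.3 to 1658 in F5, and from 4303 to 6987 and 24.1 to 82.1 in OT-1. Dntt, which encodes the terminal transferase of the same cells, ran from 17728 to 20437 in TG6 early and 2213 to 2493 in TG6 late, from 15428 to 20017 and 3038 to 5122 in F5, and from 6856 to 9799 and 622 to 1037 in OT-1. The 5 double-negative markers (Kit, Il2ra, Cd44, Hhex and Bcl11a) summed to 819 to 1404 in TG6 early and 319 to 404 in TG6 late, to 750.5 to 968 and 515 to 617 in F5, and to 604 to 700.1 and 382 to 433 in OT-1. Of these 5 genes only Il2ra, which also stands in the pathway list below, was lower without overlap in late than in early cells of all lines, and Bcl11a and Hhex stayed at or under 23.8. The part of such cells in the falls was not tested.

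Whether the OT-1 minus TG6 difference of a member changed between stages was tested directly. None of the 14 tests (7 members, early minus late and early minus mature) was called by limma, beside 2.04% and 4.2% of all genes, and 2 of the 14 had an unadjusted p under 0.05. The nearest was Notch3 between early and mature (1.01 ± 0.32 (SE), adjusted p = 0.0945), which passed with the mouse as a random block (adjusted p = 0.0448, and 0.0803, not called, as a fixed block) or without OT-1 mature replicate 3 (0.029) or TG6 mature replicate 2 (0.0324). Without TG6 mature replicate 3, the library that stood apart, that Notch3 change was 0.59 (adjusted p = 0.118). With the 4 groups fitted alone, the early minus late change was called for Hes1 (-2.48, adjusted p = 0.0299, against 0.465 with all groups) and Notch3 (0.76, adjusted p = 0.0203, against 0.381). With all groups, a call at the late stage and none at the early stage, as for Notch1 and Hes1, was not shown to be a difference between these stages.

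The rest of the pathway was followed in a list of 57 further genes of receptors, ligands, proteases, glycosyltransferases, turnover factors, nuclear cofactors and targets, of which 52 passed the filter. Dll1, Dll3, Dll4, Neurl1a and Hey2 did not pass it. Between OT-1 and TG6, 9 of the 52 were higher and 8 lower at the early stage (32.7%, against 27.8% of all genes), 3 higher and 2 lower at the late stage (9.62% against 15.5%), and 2 higher and 4 lower at the mature stage (11.5% against 9.74%). The median log2 difference of the list was -0.08, -0.0041 and -0.05 at these stages. For OT-1 against F5 the calls were 7 higher and none lower early (13.5%, against 12.7% of all genes), 9 higher and 9 lower late (34.6% against 24.0%), and 8 higher and 10 lower at the mature stage (34.6% against 23.3%). For F5 against TG6 they were 2 and 2, 3 and 4, and 3 and 4, or 7.69%, 13.5% and 13.5% against 6.46%, 4.97% and 6.64% of all genes. The OT-1 and TG6 count at the late stage was 1 without TG6 late replicate 2, and that at the mature stage was 13 without TG6 mature replicate 3 and 1 without either of the other TG6 mature libraries, so these counts rest on single libraries.

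**Figure D4:**
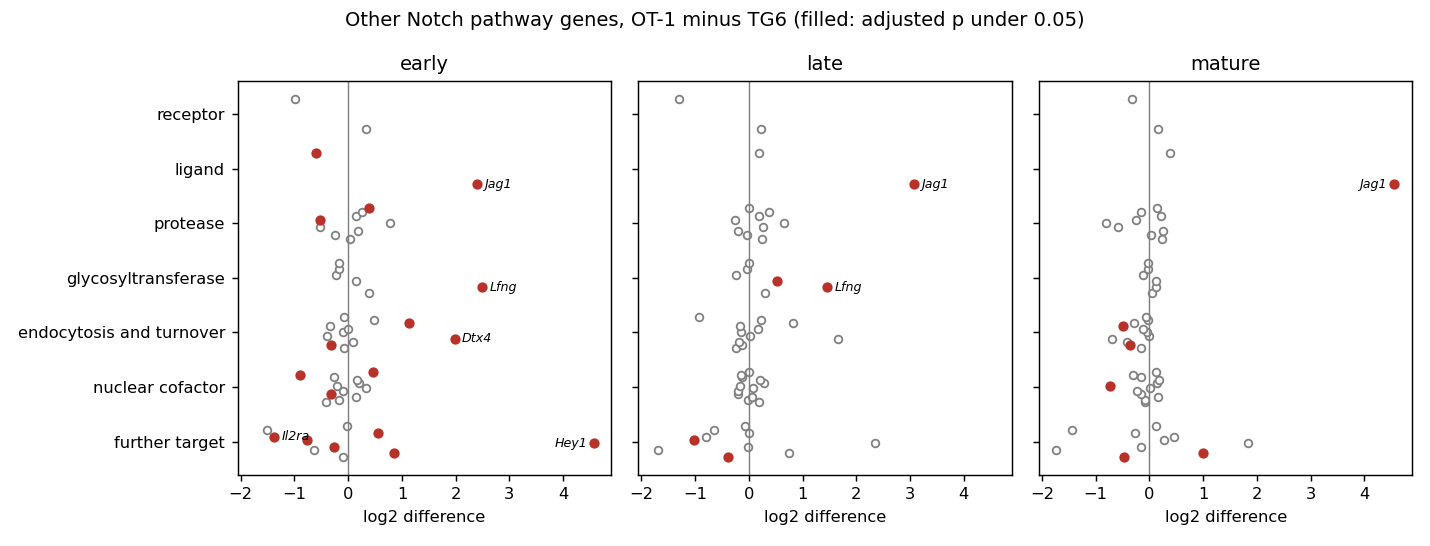
Log2 difference of OT-1 minus TG6 at each stage for the 52 further pathway genes tested, 1 point per gene in a row for its role; filled points passed an adjusted p of 0.05 and called genes past 1.2 in size are named. Jag1 lies far right at all 3 stages, and between 45 and 47 of the 52 genes lie within 1 of 0 at each stage.

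Among these genes the largest called differences between OT-1 and TG6 were in a ligand, a target and a sugar-modifying enzyme. Jag1, a Notch ligand, was near 0 in the other lines, with at most 2.35 in any TG6 library and 1.54 in any F5 library. OT-1 held 6.15, 13.1 and 5.36 at the early stage, 15.1, 20.2 and 3.12 at the late stage and 69.0, 71.1 and 49.0 at the mature stage. Its log2(count + 1) difference from TG6 was 2.39, 3.08 and 4.55 (adjusted p = 0.00382, 0.00208 and 1.4e-05), on a scale that understates changes of low genes. Hey1, a repressor of Heyl's family, held 200.2, 352 and 53.6 in OT-1 early and 8.02, 7.97 and 2.51 in TG6 early (log2 difference 4.58, adjusted p = 0.00156). Lfng, which adds sugars to Notch and so alters its choice of ligand, was 43.2, 34.8 and 79.2 in OT-1 early and 6.60, 11.6 and 6.49 in TG6 early (log2 difference 2.49, adjusted p = 6.34e-06). At the late stage Lfng was 1496, 1456 and 1222 in OT-1 and 537 and 470.0 in TG6 (log2 difference 1.46, adjusted p = 0.00845).

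Called lower in OT-1 than in TG6 at the early stage were Il2ra, the IL-2 receptor α chain (log2 difference -1.37), the corepressor Tle1 (-0.89) and the growth factor receptor Igf1r (-0.76). At the late stage Mfng, a relative of Lfng, was higher (0.52), and Igf1r (-1.02) and the T lineage factor Bcl11b (-0.39) were lower. In mature cells Gata3, a T lineage factor, was higher (1.00), and the coactivator Maml3 (-0.73), the ubiquitin ligase Mib2 (-0.49) and Bcl11b (-0.48) were lower, with adjusted p between 0.0132 and 0.0423 for these 4. The other receptor genes, Notch2 and Notch4, were not called between lines at any stage.

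From early to late, 12 of the 52 rose and 7 fell in TG6, 16 rose and 3 fell in F5, and 11 rose and 6 fell in OT-1, which is 36.5%, 36.5% and 32.7% of the list. Lfng, Neurl3, Numb, Maml2, Maml3, Pofut1 and Mfng rose and Il2ra and Ptcra, the pre-TCR α chain, fell at this step in every line. From late to mature, 4 rose in each line and 10, 11 and 11 fell in TG6, F5 and OT-1, or 26.9%, 28.8% and 28.8%. Lfng, Neurl3 and Ptcra rose and Bcl11b, Kdm5a, Maml1, Dtx3, Mib2 and Tcf7 fell at this step in every line. These shares stand beside 20.5% to 26.7% of all genes in the same steps. With the mouse as a fixed block the called genes from late to mature were 25 in F5 and 30 in OT-1 in place of 15 and 15, where 29.3% and 35% of all genes were called.

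The members' patterns over the 9 group means of log2(count + 1) were compared as a description, without a test, since the groups share mice and lines. The pair most alike was Notch3 and Heyl (Pearson r = 0.72, n = 9 groups), followed by Hes1 and Heyl (0.62), and Rbpj ran opposite to Nrarp (-0.63) and Hes1 (-0.63). Notch1 and Hes1 were at -0.22 and Notch1 and Dtx1 at 0.01. Among 11015 other genes with a mean of at least 50, those most like Hes1 were Pmaip1 (0.98), which encodes the death protein Noxa, Gfra1 (0.97) and Atox1 (0.97). Dtx1 was most like 2310039H08Rik (0.95), Slc35g1 (0.95) and Zfp747 (0.94), and Notch3 most like A930006K02Rik (0.93), Ahi1 (0.93) and Setd4 (0.92). Notch1 was most like Zfp719 (0.97), Mbd2 (0.94) and 1110002L01Rik (0.93), Rbpj most like Armcx1 (0.99), Snx29 (0.98) and Rfx3 (0.98), and Nrarp most like Crocc (0.99), Haus8 (0.97) and Kdelr1 (0.96). Heyl was most like 2010107G12Rik (0.98), Gm8203 (0.96) and Scrn3 (0.94).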

How the data were processed

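Reads from BGI sequencing of 26 sorted thymocyte libraries were processed by the authors, who per the labels and methods trimmed with Trimmomatic 0.32, aligned to mm10 with Bowtie2 2.3.2, quantified with RSEM 1.2.31 and scaled each library by DESeq2's median of ratio size factor (version not given in the sources used here). The deposited signal is therefore a normalized count per gene symbol, an RSEM estimate divided by a size factor. Of its values, 42.4% to 44.3% per library came within 0.01 of whole reads, so no count model was used. Sums of 16134786 to 18944173 per library set the precision, which is poorest for Nrarp and Heyl. The mice per group are few. In the main fit, p-values rest on the spread between libraries of a group, shared over all 9 groups. Libraries read as coming from 1 mouse are treated there as independent.

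The 16372 genes that reached 10 in 2 or more libraries were fitted with limma 3.58.1 in R 4.3.3 on log2(value + 1), with 9 group means, 17 residual degrees of freedom and a variance prior that followed mean expression. Benjamini-Hochberg adjustment was made within each contrast over all genes, and calls were at 0.05. A self-test of the fit on simulated data drew libraries as independent, with no mouse effect, and is not used as support for any result here. A fold change is 2 to the power of the log2(value + 1) difference and understates changes of low genes.

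The members and lists were chosen with earlier results of these data known. All 7 members are named. From the list of 57 further pathway genes, the 3 called genes per direction with the largest fold between OT-1 and TG6 were named at each stage, and genes called in every line at a stage step were named after their values were seen. Some listed genes are not reported here by name. For each member, the 3 genes with the highest Pearson r were named.

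Each of 3 mice per line was sorted into 3 populations, so libraries of a line that share a number were read as coming from 1 mouse. The labels do not state this outright, and the titles of the 2 TG6 late libraries are spelled unlike those of the other TG6 libraries, so the blocked TG6 values are the least certain. Deviations from group means correlated between them at 0.106 to 0.34 in F5 (9 of 9 pairs over 0.1), 0.0189 to 0.178 in OT-1 (5 of 9) and 0.023 to 0.274 in TG6 (2 of 7), and the medians for different numbers were -0.102, -0.0531 and -0.0298. The design without a mouse term was kept as the main one, and the block with the mouse as a random (correlation 0.28) or fixed term was an alternative. Other alternatives were 0.1 or 5 in place of the 1 added, no filter, a mean of at least 50, scaling to equal totals, quantile normalization, the groups compared alone, no variance trend, and each library left out. Tests of change between stages that involve F5 were added after the values were seen. Positions are from GENCODE on GRCm38 and promoter windows from RefSeq (GRCm38.p6).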

Additional observations from a re-analysis of the deposited data

Results flagged for a closer look

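A pair of line differences changed between stages by a direct test in limma, added after the values were seen, among 28 such tests. For Notch3 the OT-1 minus F5 difference was larger on the log2 scale at the early than at the mature stage, by 1.70 ± 0.32 (SE), adjusted p = 0.00601. OT-1 exceeded F5 in all early libraries and lay below it in all mature libraries. For Dtx1 the OT-1 minus F5 difference was larger at the late stage, with an early minus late change of -1.42 ± 0.29 (SE), adjusted p = 0.0109. OT-1 exceeded F5 in all libraries of both stages, and the gap in mean normalized count was 2134 against 645 early and 5054 against 592 late. The groups hold 2 or 3 libraries, and no library was tested for standing apart from its group.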

How the results depend on the processing

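Of the 48 member differences called, 29 kept their call and direction in every alternative. For 106 member differences that were at least as large as their SE or called in any fit, 1636 of 1740 refits kept direction and side of the threshold, 51 lost a call, 48 gained one and 5 turned sign. The other 41 differences were smaller than their SE and, by how they were chosen, called in no fit, and 72 of their 738 refits turned sign. With the groups compared alone, the late to mature calls were 7 (12 in the main design) and the calls of the OT-1 and TG6 change between stages 2 (0), Hes1 and Notch3 between early and late. The cause was not tested. Leaving out 1 library at a time gave 6 to 10 calls for OT-1 against TG6 (7), 9 to 11 for OT-1 against F5 (10), 5 to 7 for F5 against TG6 (5), 10 to 14 for early to late (12), 10 to 14 for late to mature (12), 0 to 1 for the OT-1 and TG6 change and 2 to 4 for the added changes with F5 (2). The 10 calls came without TG6 mature replicate 3, where 20.2% to 33% of all genes were called (9.74% to 27.8% with all libraries). That fit also gave the 7 calls for F5 against TG6, with 6.94% to 10.3% of all genes called (4.97% to 6.64%). Shares of all genes for the other leave-out fits, the groups alone and no filter are not reported here. The 5 sign turns came from single libraries: log2 differences ran from -3.91 to 0.52 for Heyl from early to late in TG6, -1.19 to 3.24 from late to mature there, -0.44 to 3.98 for its F5 minus TG6 change between early and late, -0.50 to 0.041 for Dtx1 from early to late in F5 and -0.65 to 0.046 for Notch1 in mature OT-1 against F5.

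With the replicate block (the mouse), calls were 15 (random) and 14 (fixed) for early to late, 13 and 13 for late to mature, 1 and 0 for the OT-1 and TG6 change, and 4 and 6 for the added changes. The share of all genes called rose too, to 30.2% to 35.2% (random) and 27.7% to 35.6% (fixed) for early to late (25.4% to 26.7% without the block), 27.3% to 33.7% and 24.5% to 35% for late to mature (20.5% to 24.4%), 4.28% to 7.57% and 4.47% to 7.77% for the OT-1 and TG6 change (2.04% to 4.2%), and 4.31% to 8.74% and 4.45% to 9.35% for the added changes (1.64% to 4.4%). With the random block the members called were 8, 10 and 5 for OT-1 against TG6, OT-1 against F5 and F5 against TG6. In these fits 9.83% to 28%, 13% to 24.2% and 4.98% to 6.51% of all genes were called. Without the block the shares were 9.74% to 27.8%, 12.7% to 24% and 4.97% to 6.64%. The calls the block changed are given beside the results, and it changed no other call of a member. Fixed mouse terms give no line comparison, since each mouse belongs to 1 line.

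Called genes of the pathway list moved more. With the groups compared alone they were 1 for OT-1 against TG6 at the mature stage (6), 11 and 11 for OT-1 against F5 late and mature (18 and 18), 1 and 1 for F5 against TG6 late and mature (7 and 7), 12 for early to late in F5 (19), and 4 and 7 for late to mature in TG6 and F5 (14 and 15). With no filter they were 4 for OT-1 against F5 early (7) and 4 for F5 against TG6 late (7). With the random block they were 23 and 25 for late to mature in F5 and OT-1 (15 and 15), where 28.5% and 33.7% of all genes were called (20.5% and 24.4% without it). With 1 library left out the lowest counts were 11, 1 and 1 for OT-1 against TG6 at the 3 stages (17, 5 and 6), 2, 11 and 9 for OT-1 against F5 (7, 18 and 18), 2, 1 and 5 for F5 against TG6 (4, 7 and 7), 10, 14 and 11 for early to late in TG6, F5 and OT-1 (19, 19 and 17) and 8, 11 and 12 for late to mature (14, 15 and 15). Without TG6 mature replicate 3, 27.2% of all genes were called between mature OT-1 and TG6 cells rather than 9.74%. Scaling to equal totals moved the median of all genes to -0.11 and -0.13 for OT-1 against TG6 early and late, -0.13 for OT-1 against F5 mature and -0.11 for late to mature in TG6, and no member call turned direction under it. Depth limits Heyl and Nrarp, whose late values fell to a few counts.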
